A study of Mus musculus with 18 samples.

Results

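The 40 genes described here encode collagen chains and the proteins that modify, fold, trim and cross-link them. They were chosen by name from the probes of 18 mouse arrays, and the brightest probe stood for each gene. All 40 were among the 22911 gene symbols of the array, and 39 were tested. Col10a1, a network-forming collagen of growth-plate cartilage, was well above background on 2 arrays and was left out of the tests. Loxl4 was tested but was well above background on only 5 of 18 arrays, and on none in PRCre uterus or PRCre lesions, so no difference is given for it.

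The arrays measured RNA from uterus, from eutopic endometrium and from ectopic endometriotic lesions by genotype: that of ERBOE mice, which the submitters describe as overexpressing oestrogen receptor beta, and that of PRCre/+ control mice, in which the progesterone receptor gene drives Cre recombinase. Ectopic lesions grew from uterine fragments of ERBOE or PRCre/+ donors of 8 weeks of age placed in wild-type C57BL/6J females of the same age, so an ERBOE or PRCre lesion is named by its donor and any host tissue in it is wild type. Eutopic endometrium came from ERBOE or PRCre/+ females that had received a wild-type C57BL/6J fragment at 8 weeks of age. Lesions and eutopic endometrium were taken at estrus in week 4 after surgery, and uterus was taken at estrus from mice of 12 weeks of age without surgery. Lesions and eutopic endometrium thus came from different animals, and in these comparisons tissue site and host genotype cannot be told apart. Each array carried RNA pooled from 3 animals, and each of the 6 groups had 3 such pools, so p-values measure the spread between pools. The labels do not spell out the alleles of ERBOE mice. For ERBOE lesions and eutopic endometrium the labels conflict: titles name lesion or eutopic tissue while the source text says without endometriosis, and the design text on eutopic tissue mentions lesions; the titles were followed.

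Collagens are trimers of alpha chains that fold in the endoplasmic reticulum, where prolyl and lysyl hydroxylases modify them and the chaperone Serpinh1 (HSP47) holds the triple helix. After secretion the propeptides are cut off, fibrils assemble and lysyl oxidases cross-link them. In the uterus the fibrillar collagens fill the stroma and the myometrium, collagen IV lines epithelium, vessels and smooth muscle cells, and endometriotic lesions are known for fibrosis.

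Values are log2 signals relative to the 75th percentile of their own array, called levels below, and differences between groups are in log2 units with limma standard errors from 1 model of all 18 arrays. A difference passed the test if its Benjamini-Hochberg adjusted p over all 33185 features was under 0.05. The 75th percentile signal was 240 on PRCre uterus replicate 1 and ran from 455 to 745 on the other 17 arrays. The first stood apart for these genes: it held the lowest of the 18 values for 24 of the 39 members, against 12.9% of all features, and Col1a1 read 2.91 there against 7.06 and 6.46 on the other PRCre uterus arrays. Esr2, the gene of oestrogen receptor beta, had group means between 2.19 and 2.69, with ERBOE minus PRCre differences of -0.24 ± 0.20, 0.01 ± 0.20 and -0.26 ± 0.20 in uterus, eutopic endometrium and lesions that did not pass; the labels do not place its probe relative to the transgene, so it checks no genotype. Markers of stroma, epithelium and smooth muscle were present in every group. The summed signal of 8 smooth muscle markers, as multiples of the array's 75th percentile, ran from 473 to 1068 in eutopic endometrium and from 549 to 831 in uterus, so the samples labelled endometrium carried smooth muscle RNA at levels that overlap those of whole uterus.

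**Figure D1:**
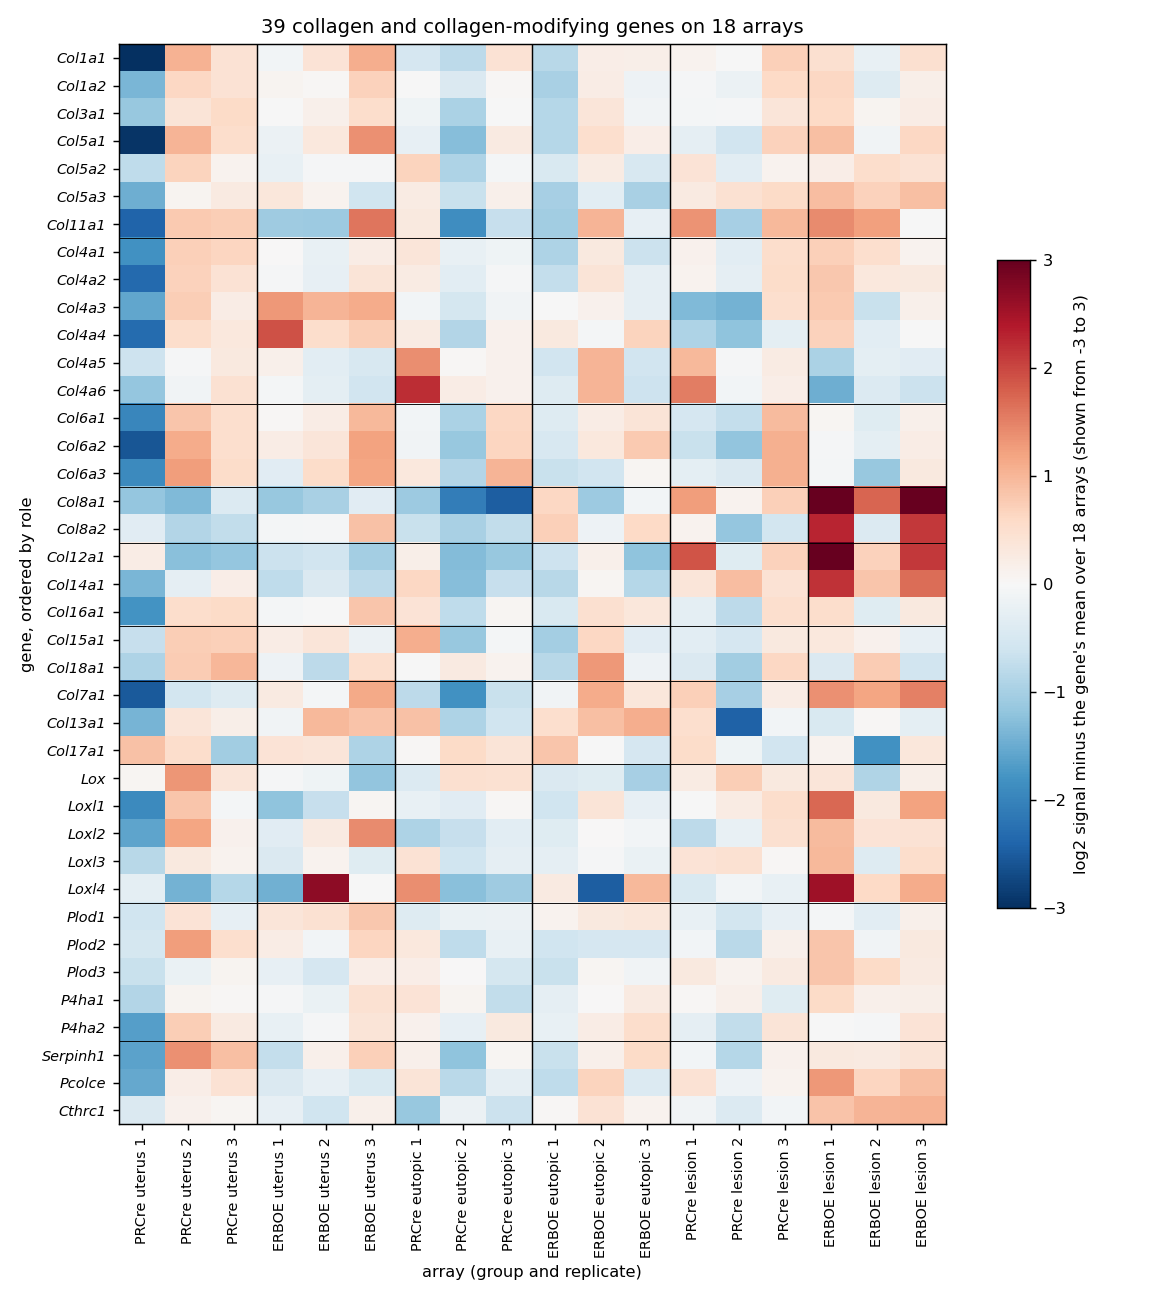
Levels of the 39 tested genes (rows, ordered by role) on 18 arrays (columns, 3 per group), each as the log2 signal minus that gene's mean over the arrays; colours end at -3 and 3. Col8a1, Col12a1, Col14a1 and Cthrc1 are red in the ERBOE lesions, and the column of PRCre uterus replicate 1 is blue for most genes. Loxl4 was below background on most arrays.

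In ectopic lesions the collagen genes that stood out were Col8a1, Col14a1, Col12a1 and, in ERBOE lesions, Cthrc1. Col8a1, an alpha chain of the short-chain network collagen VIII of vessel walls and Descemet's membrane, was 10.1-fold higher in ERBOE lesions than in ERBOE eutopic endometrium and 15.6-fold higher than in ERBOE uterus. Col14a1 and Col12a1, fibril-associated collagens that sit on the surface of type I fibrils, were 2.94-fold and 4.14-fold higher in lesions than in eutopic endometrium as a mean over both genotypes, the former past the threshold and the latter just short of it. The main interstitial chains Col1a1, Col1a2 and Col3a1 did not pass in any comparison.

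Of the 39 members, 1 passed in ERBOE lesions against ERBOE eutopic endometrium (Col8a1, higher). There 0.600% of all features passed, and 0.464% of all features passed as higher. Groups did not overlap there for 10 members, against 20.5% of all features. In PRCre lesions against PRCre eutopic endometrium 0 of 39 passed and 2 had an unadjusted p under 0.05, against 0.00301% and 3.93% of all features. In the mean of both genotypes 2 members passed (Col8a1 and Col14a1), against 1.24% of all features, 0.931% higher. For ERBOE 29 of 39 members lay above 0 with a median difference of 0.51, against a median of -0.13 and 38.1% above 0 over all features. For PRCre 25 of 39 did, with a median of 0.16, against -0.06 and 41.6%. PRCre lesions and PRCre eutopic endometrium shared only slide 2, and with slide as a block 19 of 39 members lay above 0 for PRCre with a median of -0.02, against 26 of 39 with a median of 0.36 for ERBOE. Without PRCre eutopic replicate 2 the PRCre count was also 19. The genotypes' lesion differences did not differ by a test of their own in any of the 39 members, of which 0 had an unadjusted p under 0.05 in limma, where 0 of all features passed and 1.65% had such a p.

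Against the uterus, 3 members passed in ERBOE lesions (Col8a1, Cthrc1 and Col14a1), where 1.24% of all features passed and 0.949% of all features passed as higher. In PRCre lesions 0 passed, against 0.00904% of all features, and 3 had an unadjusted p under 0.05 in limma, against 11.8% of all features. Groups for ERBOE did not overlap for 13 members, against 20.3% of all features. In the mean of both genotypes 3 passed (Col8a1, Col14a1 and Col12a1), against 2.09%, 1.42% higher. These comparisons use the same lesion arrays as those with eutopic endometrium, so they are no second set of lesions. All members that passed were higher in lesions.

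Col8a1 read -1.13, -1.32 and -0.40 in PRCre uterus and -1.12, -0.94 and -0.32 in ERBOE uterus. It read -1.07, -2.05 and -2.46 in PRCre eutopic endometrium and 0.63, -1.07 and -0.07 in ERBOE eutopic endometrium. In lesions it read 1.28, 0.12 and 0.73 for PRCre and 4.29, 1.76 and 3.46 for ERBOE. Every lesion array was above every uterus array, every lesion group was above the eutopic group of its genotype, and every ERBOE lesion was above every PRCre lesion. The difference from eutopic endometrium was 3.34 ± 0.60 for ERBOE (adjusted p = 0.0176, limma), 2.57 ± 0.60 for PRCre (adjusted p = 0.360) and 2.95 ± 0.42 as their mean (adjusted p = 0.00284). From uterus it was 3.97 ± 0.60 for ERBOE (adjusted p = 0.00434), 1.66 ± 0.60 for PRCre (adjusted p = 0.295) and 2.81 ± 0.42 as their mean (adjusted p = 0.00286). The ERBOE lesion to eutopic difference lost the threshold when ERBOE lesion replicate 1 or 3 or ERBOE eutopic replicate 2 or 3 was left out, with adjusted p of 0.102, 0.0757, 0.0924 and 0.0762. Within slides 2 and 3, which held both groups, it was 2.82 and 4.85, and for PRCre, where only slide 2 held both, it was 3.16.

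**Figure D2:**
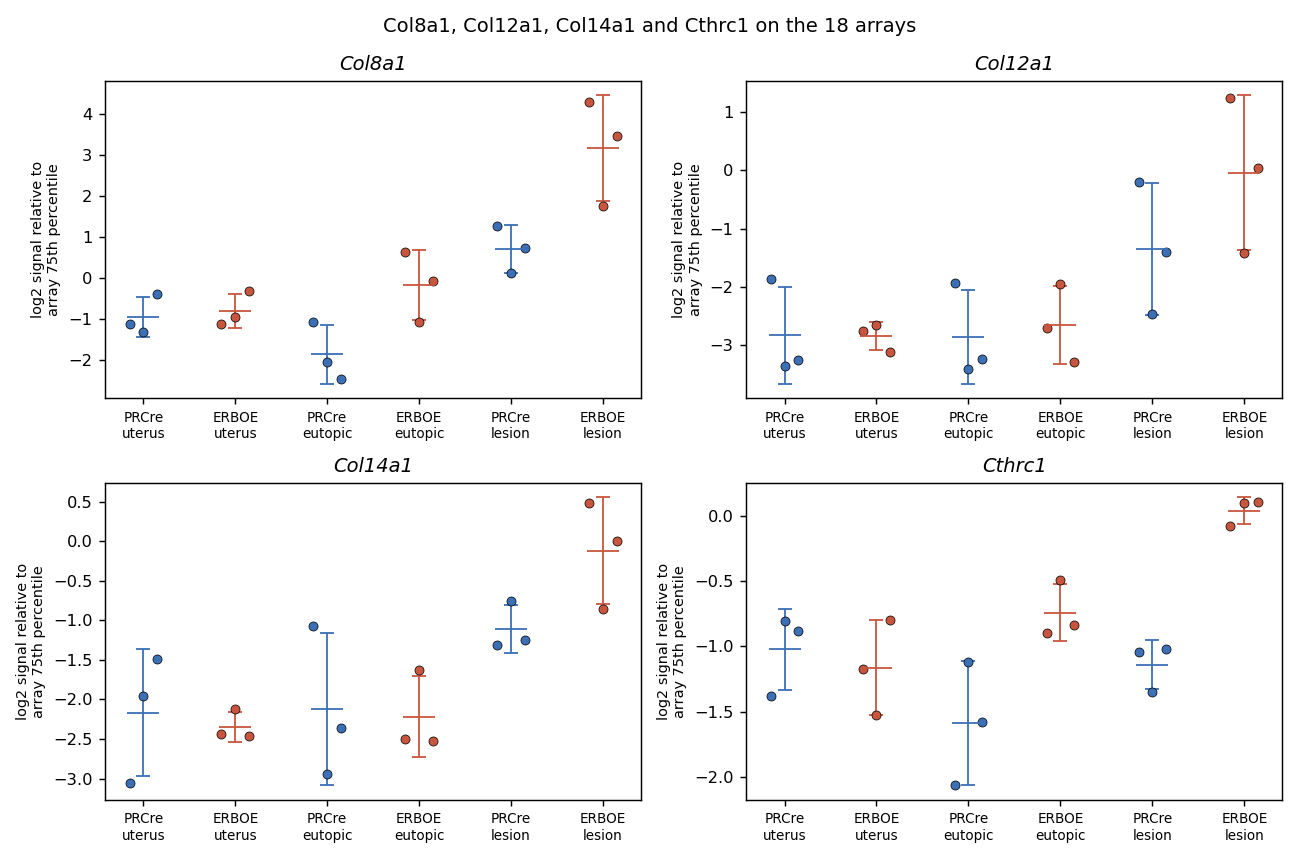
Level of Col8a1, Col12a1, Col14a1 and Cthrc1 (log2 signal relative to the array's 75th percentile, vertical axes) in the 6 groups; each point is an array of 3 pooled animals, and bars give the mean and SD of 3 arrays. The ERBOE lesions have the highest mean for all 4 genes, and for Cthrc1 all 3 ERBOE lesions lie above all other arrays.

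Col14a1 read 0.49, -0.85 and 0.00 in ERBOE lesions and -1.31, -0.76 and -1.25 in PRCre lesions. Its eutopic values were -2.50, -1.63 and -2.52 for ERBOE and -1.07, -2.95 and -2.36 for PRCre. Its uterine values were -2.44, -2.12 and -2.46 for ERBOE and -3.05, -1.96 and -1.49 for PRCre. The lesions were above the uterus on every array, and above eutopic endometrium on every array but that PRCre eutopic replicate 1 reached the PRCre lesions. The lesion difference from eutopic endometrium was 2.10 ± 0.49 for ERBOE (adjusted p = 0.0807, limma), 1.02 ± 0.49 for PRCre and 1.56 ± 0.35 as their mean (adjusted p = 0.0417); from uterus it was 2.22 ± 0.49 for ERBOE (adjusted p = 0.0406) and 1.64 ± 0.35 as the mean (adjusted p = 0.0244). These 3 calls were close to the threshold: over 29 alternatives the adjusted p ran up to 0.127 for the mean against eutopic endometrium, 0.205 for ERBOE lesions against uterus and 0.0774 for the mean against uterus. Leaving out ERBOE lesion replicate 1 or 3, PRCre lesion replicate 1, or ERBOE uterus replicate 1 or 3 ended each of them. The mean against uterus was also lost without PRCre uterus replicate 1 or PRCre lesion replicate 2. Both calls other than that one were lost without replicate 2 of either uterus group, the third PRCre eutopic array, or replicate 1 or 3 of ERBOE eutopic endometrium, and the mean against eutopic endometrium without PRCre lesion or PRCre eutopic replicate 2. With slide as a block the adjusted p was 0.0966 for the mean against eutopic endometrium and 0.0606 for ERBOE lesions against uterus.

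Col12a1 read 1.24, -1.41 and 0.04 in ERBOE lesions and -0.20, -2.45 and -1.40 in PRCre lesions, a wide spread in both groups. The other 4 groups lay between -3.40 and -1.86. Replicate 2 of the PRCre lesions fell inside that range, and the other 5 lesion arrays lay above it. The lesion difference was 2.05 ± 0.48 from eutopic endometrium (adjusted p = 0.0558, limma) and 2.13 ± 0.48 from uterus (adjusted p = 0.0353) as means of both genotypes. With slide as a block the former passed (2.56, adjusted p = 0.0303), as did ERBOE lesions against ERBOE uterus (adjusted p = 0.0466, against 0.0654 without it), and the former passed in 12 of 29 alternatives. A second, dimmer Col12a1 probe gave 1.45 ± 0.44 and 1.94 ± 0.44. The call against uterus was lost, with adjusted p up to 0.0974, when any of 9 arrays was left out, namely ERBOE lesion replicates 1 and 3, PRCre lesion replicate 1, all 3 ERBOE uterus arrays, PRCre uterus replicates 2 and 3 and ERBOE eutopic replicate 1.

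Cthrc1, a secreted protein that binds collagen-rich matrix and is induced in wound fibroblasts, read -0.08, 0.09 and 0.10 in ERBOE lesions. It read -1.04, -1.35 and -1.02 in PRCre lesions, -0.90, -0.50 and -0.84 in ERBOE eutopic endometrium and -2.06, -1.12 and -1.58 in PRCre eutopic endometrium. In uterus it read -1.18, -1.52 and -0.80 for ERBOE and -1.38, -0.80 and -0.89 for PRCre. The ERBOE lesions did not overlap any other group. Their difference from ERBOE uterus was 1.20 ± 0.26 (adjusted p = 0.0381, limma), while the PRCre lesions differed from PRCre uterus by -0.12 ± 0.26. The difference between those differences was 1.32 ± 0.37 (adjusted p = 0.503, limma) and did not pass. The ERBOE call was lost in 12 of 29 alternatives. Leaving out ERBOE lesion replicate 1, 2 or 3 gave adjusted p of 0.115, 0.0842 and 0.128, and leaving out ERBOE uterus replicate 1 or 2 gave 0.134 and 0.177. Median scaling gave 0.121, quantile normalization 0.0512 and no filter on dim probes 0.0664. The call was also lost, at 0.0520 to 0.0541, without the first PRCre lesion array, the third PRCre eutopic array, or replicate 1 or 3 of ERBOE eutopic endometrium.

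Among the 7 fibrillar chains, the rope-like collagens of the stroma, all 7 lay above 0 in lesions against eutopic endometrium. They did so by 0.35 to 1.08 as means of both genotypes, where 38.7% of all features lay above 0. The signs held under each of the 5 scalings and value sets tried, but 0 passed and with slide as a block 5 of 7 lay above 0. These sets reuse the same arrays, and Col1a1 and Col1a2 varied together on them (r = 0.92), so the 7 signs are not separate observations. Col5a3, a minor chain that helps start type I fibrils, read 2.35, 2.12 and 2.34 in ERBOE lesions, 1.69, 1.89 and 2.02 in PRCre lesions and 0.43 to 1.67 in eutopic endometrium, so no lesion array overlapped the eutopic arrays, although the nearest values were 1.69 and 1.67. Its mean difference was 1.06 ± 0.29 (adjusted p = 0.109, limma), and it was 1.60 ± 0.41 for ERBOE (adjusted p = 0.115); without PRCre uterus replicate 1 both passed at 0.0223 and 0.0242. Col11a1, better known from cartilage, differed by 1.08 ± 0.69. Col1a1, Col1a2, Col3a1, Col5a1 and Col5a2 differed by 0.48 ± 0.55, 0.35 ± 0.33, 0.48 ± 0.30, 0.45 ± 0.58 and 0.39 ± 0.28, so none passed.

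Among the enzymes 0 passed in any lesion comparison. The 4 lysyl oxidases with a difference, which oxidise lysines for cross-links, lay above 0 in lesions against eutopic endometrium as means of both genotypes. Over all features 38.7% did. Loxl1 was 1.68 ± 0.56 higher in ERBOE lesions than in ERBOE uterus without passing (adjusted p = 0.194, limma); its lesion values were 3.86, 2.43 and 3.35 and its uterine values 0.94, 1.45 and 2.20. Lox and Loxl2 differed from eutopic endometrium by 0.36 ± 0.30 and 0.61 ± 0.41, and Loxl3 by 0.49 ± 0.26. Plod3, which hydroxylates and glycosylates lysines, read 2.48, 2.22 and 1.92 in ERBOE lesions against 0.96, 1.70 and 1.53 in ERBOE eutopic endometrium, a difference of 0.81 ± 0.28 (adjusted p = 0.293), and the groups did not overlap. Pcolce, which speeds removal of the C-propeptide, differed by 1.11 ± 0.48 (adjusted p = 0.417). Plod1, Plod2, P4ha1 and P4ha2, the other hydroxylases, differed by -0.32, 0.88, 0.29 and -0.05 and Serpinh1 by 0.29 in the same comparison, and none passed.

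Basement membrane and filament chains gave small differences. The 6 chains of collagen IV, the sheet of the basement membrane, differed between lesions and eutopic endometrium by -0.57 (Col4a6) to 0.49 (Col4a1) as means of both genotypes. The 3 chains of collagen VI, which forms beaded filaments around cells, differed by -0.16 to 0.02. Col16a1, a fibril-associated chain, differed by -0.03 ± 0.40, and Col15a1 and Col18a1, the multiplexins next to basement membranes, by 0.09 ± 0.38 and -0.30 ± 0.44. Col13a1 and Col17a1, transmembrane collagens, differed by -0.77 ± 0.48 and -0.47 ± 0.43. Col7a1, the anchoring fibril collagen, differed by 0.99 ± 0.41 (adjusted p = 0.319, limma), and Col8a2, the other chain of collagen VIII, by 0.60 ± 0.40. None of these passed.

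**Figure D3:**
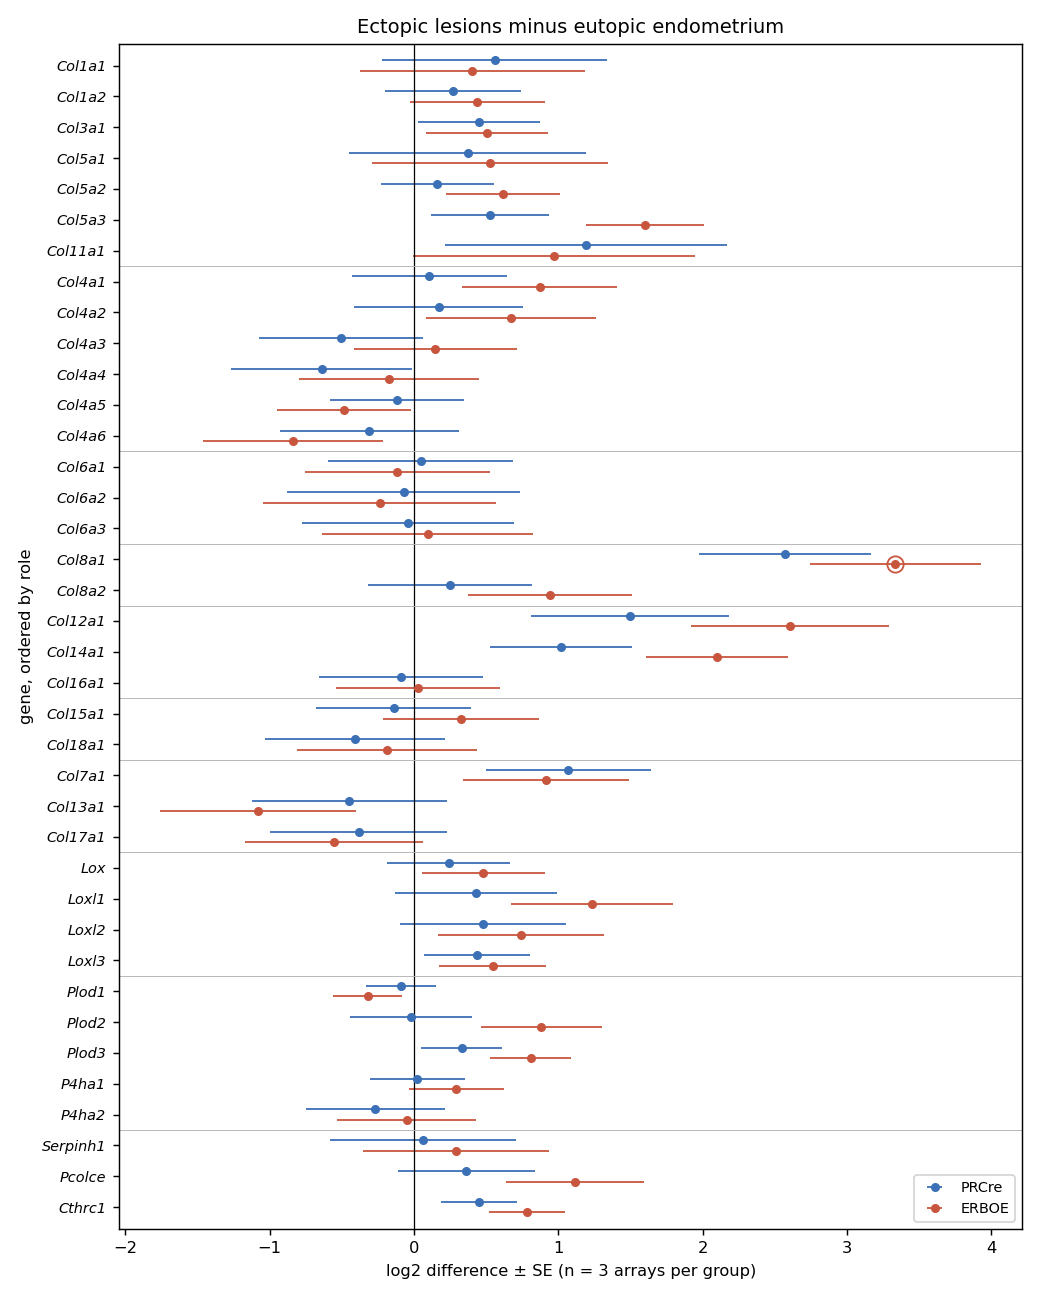
Difference in level between ectopic lesions and eutopic endometrium (log2, horizontal axis) for 38 genes ordered by role, for PRCre and ERBOE; points are limma estimates from 3 arrays per group, bars are standard errors, and the ring marks adjusted p under 0.05. For ERBOE, Col8a1, Col12a1 and Col14a1 lie farthest to the right, and only Col8a1, at 3.34, carries the ring. For PRCre, Col8a1 and Col12a1 lie farthest to the right, and Col11a1 (1.19) and Col7a1 (1.07) lie beyond Col14a1 (1.02). No PRCre point carries a ring.

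Markers of other cell types were read in the same lesion comparisons. The summed signal of 8 adipocyte markers was 337 to 537 in ERBOE lesions and 80.2 to 364 in PRCre lesions, against 2.33 to 29.4 on the arrays of the other 4 groups, and 7 of 8 (Adipoq, Plin1, Plin4, Lipe, Fabp4, Lpl and Cfd) rose in lesions against eutopic endometrium; Lep was the exception. In the same mean of both genotypes all 8 macrophage markers lay above 0 with a median of 1.00, all 8 endothelial markers above 0 with a median of 0.51, and 7 of 8 smooth muscle markers below 0 with a median of -0.50, and none of these 24 passed. All 8 epithelial and all 6 mesothelial markers lay below 0, with medians of -0.33 and -0.24 and none past the threshold. The 9 markers of stroma and fibroblasts had a median of -0.14. In ERBOE lesions against ERBOE uterus, where Cthrc1 and Col14a1 passed, 7 of 8 adipocyte markers rose, 7 of 8 epithelial markers lay below 0 with a median of -1.24, and all 8 endothelial and all 8 macrophage markers lay above 0 with medians of 0.93 and 1.35. The summed signal of the 9 stroma and fibroblast markers was 107 to 125 in ERBOE lesions and 60.1 to 74.6 in ERBOE uterus, without overlap. In the mean against uterus the macrophage marker Lyz2 rose. The part of these cell types in the collagen differences was not tested. In pooled tissue RNA, more cells of a type and more RNA per cell cannot be told apart.

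Between the genotypes 0 of 39 members passed in any tissue, and 0 of all features did. The 5 members with an unadjusted p under 0.05 in lesions, where 4.46% of all features had one, were Cthrc1, Col8a1, Col8a2 and Col7a1, which read higher in ERBOE, and Col4a6, which read lower. Members were higher in ERBOE lesions in 33 of 39 cases, with a median difference of 0.35, against -0.06 and 43.2% over all features. Groups did not overlap for 9 members, 7 of them higher in ERBOE, against 11.6% of all features in either direction and 5.20% higher; 1 of the 7 was Loxl4. The ERBOE lesions had the highest mean of the 6 groups for 20 of 39 members, against 14.5% of all features. The ERBOE uterus had the highest mean for 10, against 13.8%, and the PRCre lesions for 0, against 12.9%. The adipocyte markers lay above 0 between ERBOE and PRCre lesions in 8 of 8 cases, with a median of 1.59. The summed signal of the 9 stroma and fibroblast markers was 107 to 125 in ERBOE lesions and 85.9 to 98.5 in PRCre lesions, without overlap. The part of these cell types was not tested.

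In lesions the ERBOE minus PRCre difference was 2.46 ± 0.60 for Col8a1 (adjusted p = 0.682, limma), a 5.50-fold difference, and 1.18 ± 0.26 for Cthrc1 (adjusted p = 0.560), a 2.26-fold difference. In eutopic endometrium both were also higher in ERBOE, by 1.69 ± 0.60 and 0.84 ± 0.26, without overlap for Cthrc1 and with the nearest arrays of Col8a1 both at -1.07, while in uterus they differed by 0.15 ± 0.60 and -0.14 ± 0.26. The tests of whether the genotype difference changes between uterus and lesions gave 2.31 ± 0.84 for Col8a1 (adjusted p = 0.625) and did not pass for any member; 2 members, Cthrc1 and Col8a1, had an unadjusted p under 0.05 in limma, against 6.74% of all features. Within slides 1 and 2, which held lesions of both genotypes, Col8a1 differed by 1.03 and 2.76 and Cthrc1 by 1.11 and 1.30. Col12a1 and Col14a1 differed between the lesions by 1.31 ± 0.68 and 0.99 ± 0.49, with overlapping arrays.

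Col8a2 read 1.20, -1.50 and 1.04 in ERBOE lesions and -0.98, -2.24 and -1.62 in PRCre lesions. ERBOE lesion replicate 2, which was also the lowest ERBOE lesion for Col8a1, Col12a1 and Col14a1, lay among the PRCre lesions. The genotype difference was 1.86 ± 0.57 in lesions (adjusted p = 0.933, limma), 1.17 ± 0.57 in eutopic endometrium and 0.92 ± 0.57 in uterus, and in the latter pair of tissues the groups did not overlap. Col7a1 read 4.33, 4.14 and 4.45 in ERBOE lesions and 3.67, 1.95 and 3.18 in PRCre lesions. In eutopic endometrium it read 2.84, 4.05 and 3.29 for ERBOE and 2.17, 1.13 and 2.29 for PRCre, and in uterus 3.21, 2.89 and 4.08 against 0.42, 2.40 and 2.55. ERBOE arrays were above PRCre arrays without overlap in all 3 tissues, by 1.60 ± 0.57, 1.53 ± 0.57 and 1.37 ± 0.57 in uterus, eutopic endometrium and lesions, and 0 of these passed. Without PRCre uterus replicate 1 the uterine difference of Col7a1 was 0.91 ± 0.52.

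The start regions of these 3 genes are shown because Col8a1 and Col8a2 code for partner chains that varied together and Col7a1 read higher in ERBOE in every tissue. Each line gives the 250 bases before the RefSeq transcription start on GRCm38.p6, read in the direction of transcription: Col8a1 at chr16:57754738-57754987 on the minus strand, Col8a2 at chr4:126286544-126286793 and Col7a1 at chr9:108953336-108953585 on the plus strand. Capitals mark matches on either strand to 6 motifs, and neighbouring matches may overlap. The TATA box was searched as TATAAA and the box that binds NF-Y as CCAAT. The box that binds Sp1, called the GC box, was searched as GGGCGG. The site of the factor AP-1 was searched as TGANTCA and the SMAD box as CAGAC, and the palindromic oestrogen response element was searched in full.
Col8a1: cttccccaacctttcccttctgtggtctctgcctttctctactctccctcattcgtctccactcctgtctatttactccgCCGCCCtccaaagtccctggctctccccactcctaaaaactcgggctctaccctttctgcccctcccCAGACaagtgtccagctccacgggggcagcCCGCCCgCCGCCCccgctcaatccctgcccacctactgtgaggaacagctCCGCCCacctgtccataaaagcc
Col8a2: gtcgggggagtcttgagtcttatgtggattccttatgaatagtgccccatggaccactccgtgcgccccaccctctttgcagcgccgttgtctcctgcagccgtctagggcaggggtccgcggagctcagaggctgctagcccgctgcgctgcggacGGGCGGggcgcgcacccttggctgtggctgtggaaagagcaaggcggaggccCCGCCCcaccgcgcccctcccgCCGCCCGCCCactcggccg
Col7a1: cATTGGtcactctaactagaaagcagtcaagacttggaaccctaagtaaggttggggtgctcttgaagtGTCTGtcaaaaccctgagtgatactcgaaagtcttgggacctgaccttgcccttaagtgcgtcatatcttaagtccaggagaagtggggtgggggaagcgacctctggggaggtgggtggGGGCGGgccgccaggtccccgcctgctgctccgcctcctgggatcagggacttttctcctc
Col8a1 held 4 GC boxes and 1 SMAD box, Col8a2 held 4 GC boxes, and Col7a1 held 1 GC box, 1 CCAAT box and 1 SMAD box. Their GC contents were 60.8%, 70.0% and 56.4%, against a median of 52.4% over the 32851 windows of the same length. Of the 29 members with a window, 19 held a GC box (32.7% of all windows), 13 a SMAD box (42.2%), 11 a CCAAT box (33.8%), 5 a TATA box (12.4%), 1 an AP-1 site (6.75%) and 0 the full oestrogen response element (0.0639%). A match describes letters only.

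Lower values in ERBOE were fewer. Col4a6, a basement membrane chain of smooth muscle and some epithelia, read -1.03, 0.03 and -0.21 in ERBOE lesions and 1.98, 0.35 and 0.62 in PRCre lesions, which did not overlap; the difference was -1.39 ± 0.62 (adjusted p = 0.993, limma). Its neighbour Col4a5 went the same way at -0.93 ± 0.46. Lox, the first lysyl oxidase, read lower in ERBOE uterus without overlap (1.79, 1.70 and 0.66 against 1.90, 3.16 and 2.20), a difference of -1.04 ± 0.42 (adjusted p = 0.443), with -0.78 ± 0.42 in eutopic endometrium and -0.54 ± 0.42 in lesions. A second Lox probe gave -0.92 ± 0.34, -0.93 ± 0.34 and -0.07 ± 0.34 in the same order, so the probes disagreed on lesions.

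In the uterus 5 members had an unadjusted p under 0.05, where 9.88% of all features had one, and in eutopic endometrium 3 did, against 2.95%. Groups did not overlap for 4 members in uterus and 5 in eutopic endometrium, against 15.0% and 9.16% of all features. Besides Col7a1 and Lox, the uterine members were Col4a3 and Col4a4, chains of specialised basement membranes, at 1.34 ± 0.57 and 1.54 ± 0.63, and Plod1 at 0.69 ± 0.24. The eutopic members were Cthrc1, Col8a1 and Col7a1. The uterine direction hung on 1 array: 24 of 39 members lay above 0, against 40.7% of all features, with a median of 0.25, but without PRCre uterus replicate 1 only 11 did, with a median of -0.27, and Col4a3 and Col4a4 then differed by 0.66 and 0.63. Median scaling in place of the 75th percentile moved members and all features alike, their medians going from 0.25 to 0.42 and from -0.11 to 0.05. Epithelial markers read higher in ERBOE uterus for 7 of 8 genes, with a median of 1.70 and none past the threshold. Summed stroma and fibroblast markers were lower in ERBOE uterus, at 60.1 to 74.6 against 82.3 to 124 in PRCre uterus. Summed endothelial markers were also lower, at 31.1 to 35.1 against 41.7 to 88.9. The part of these cell types in the collagen values was not tested.

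**Figure D4:**
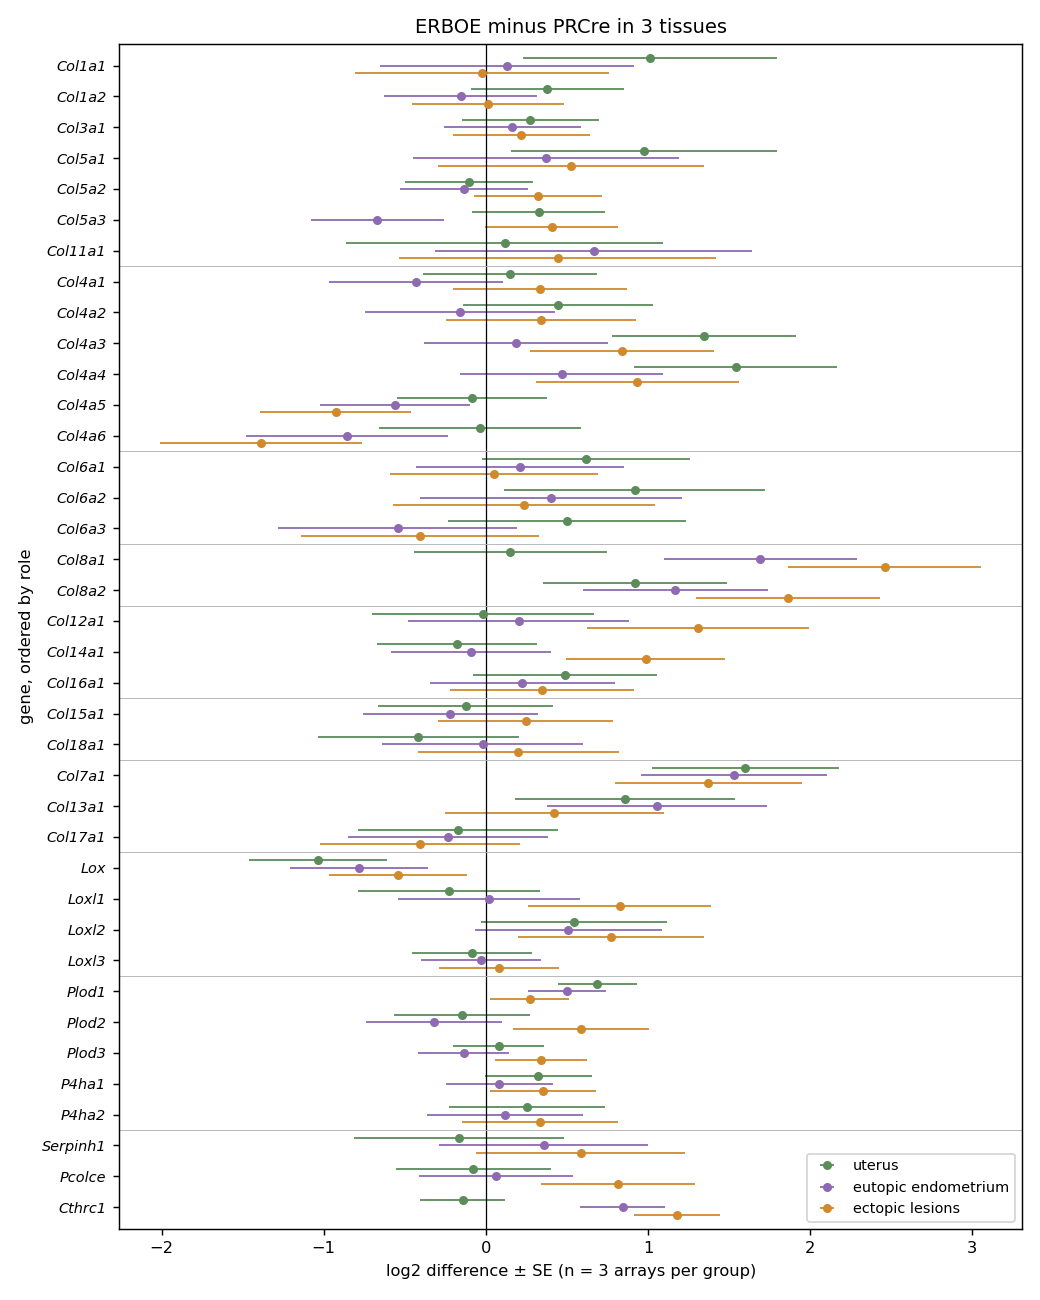
ERBOE minus PRCre difference in level (log2, horizontal axis) for 38 genes ordered by role in uterus, eutopic endometrium and ectopic lesions; points are limma estimates from 3 arrays per group and bars are standard errors. Col8a1 in lesions lies farthest to the right at 2.46, Col7a1 lies between 1.37 and 1.60 in all 3 tissues, and no point passed the test.

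Between eutopic endometrium and uterus 0 of 39 members passed in the mean of both genotypes, where 0 of all features did. In that mean 1 member had an unadjusted p under 0.05 in limma, against 3.92% of all features. That gene was Plod2, the lysyl hydroxylase of telopeptide cross-links, at -0.72 ± 0.30. Col8a1, Col12a1 and Col14a1 differed by -0.14, 0.08 and 0.08. By genotype, Col8a1 differed by -0.91 in PRCre and 0.63 in ERBOE, and Cthrc1 by -0.56 and 0.42, estimates of opposite sign that the mean averages out. The test of whether the genotypes' differences differ passed for 0 of 39 members, with a smallest adjusted p of 0.941 (limma). There 1 member had an unadjusted p under 0.05 in limma, against 5.10% of all features. Within each genotype 0 members passed, where 0 of all features did. Groups did not overlap for 3 members in ERBOE, Col4a3 at -1.20 among them, and for 0 in PRCre, against 11.7% and 9.96% of all features. In the mean of both genotypes 16 of the 39 members lay above 0, against 53.6% of all features, with a median of -0.13, and this direction was not settled. The count was 6 without PRCre uterus replicate 1 and 7 without PRCre eutopic replicate 1, but 23 without PRCre uterus replicate 2, 22 without PRCre eutopic replicate 2 and 22 with slide as a block, with medians of 0.08, 0.02 and 0.04 in the latter 3.

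**Figure D5:**
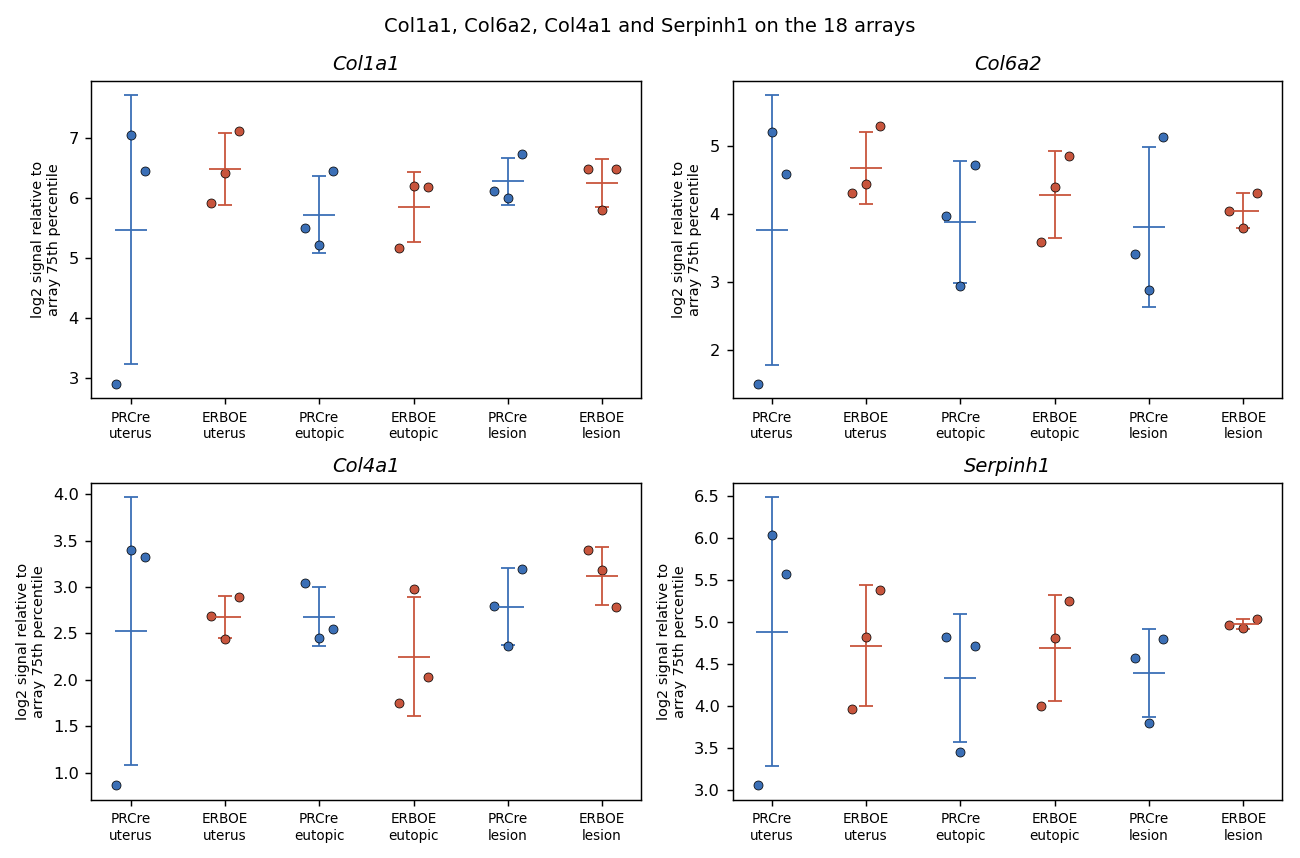
Level of Col1a1, Col6a2, Col4a1 and Serpinh1 (log2 signal relative to the array's 75th percentile, vertical axes) in the 6 groups; each point is an array of 3 pooled animals, and bars give the mean and SD of 3 arrays. PRCre uterus replicate 1 is the lowest array in all 4 panels. Most other groups overlap, but for Serpinh1 the ERBOE lesions lie above all PRCre lesions and PRCre eutopic arrays. For Col6a2 the ERBOE uterus arrays lie just above the ERBOE lesions.

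Chains that build the same trimer varied together from array to array. Pairs of chains from different molecules were not computed, so whether this is particular to partner chains was not tested. Over the 18 arrays, after removal of each group's mean, Col6a1 and Col6a2 correlated at r = 0.99 (Spearman rho 1.00), Col4a1 and Col4a2 at 0.98 (0.96), Col4a5 and Col4a6 at 0.96 (0.92) and Col6a2 and Col6a3 at 0.94 (0.94). Col1a1 and Col1a2 followed at 0.92 (0.89), Col8a1 and Col8a2 at 0.83 (0.79) and Col4a3 and Col4a4 at 0.80 (0.79). Values were permuted within groups, and the adjusted p over 8 pairs was at most 0.00201 for these 7 pairs by r and at most 0.00270 by rho. Leaving out the pair of arrays farthest from the median left r between 0.69 and 0.99, and within slides of 4 or 7 arrays r ran from 0.75 to 0.99. Col5a1 and Col5a2 were the exception, at r = 0.67 (adjusted p = 0.0373) and rho = 0.53 (adjusted p = 0.0852). Their r was 0.44 without the farthest arrays, PRCre uterus replicates 1 and 2, and -0.68 on slide 1, so the relation rested on a few arrays. Col4a1 and Col4a2, Col4a3 and Col4a4, Col4a5 and Col4a6, and Col6a1 and Col6a2 are also neighbours in the genome. The genes of a pair were read on the same arrays, and chains of different molecules shifted together on at least 1 of them. PRCre uterus replicate 1 held the lowest of the 18 values for 24 of the 39 members. The part of array-wide shifts in r was not tested.

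Other genes of collagen biology were read beside the members. As means of both genotypes, 1.24% of all features passed in lesions against eutopic endometrium (0.931% higher), and 38.7% lay above 0. Against uterus 2.09% of all features passed (1.42% higher). Of 13 tested genes that bind or space fibrils, 3 rose in lesions against eutopic endometrium as means of both genotypes: Fmod, which regulates fibril width and cross-linking, by 1.84 ± 0.30 (adjusted p = 0.00684, limma), Comp, which links collagens, by 1.60 ± 0.30 (adjusted p = 0.0162) and Aspn by 1.27 ± 0.26 (adjusted p = 0.0297). Against uterus Fmod, Comp, Prelp and Thbs2 rose, by 1.77 ± 0.30, 2.22 ± 0.30, 1.46 ± 0.29 and 2.64 ± 0.62, and Omd fell by 1.17. Of 12 genes of TGF-beta, the main inducer of collagen synthesis, all 12 lay above 0 against eutopic endometrium with a median of 0.70 and 0 passed, with 0.97 ± 0.23 for Tgfb1 (adjusted p = 0.0615) and 3.21 ± 0.75 for Ltbp2 (adjusted p = 0.0542). Against uterus Tgfb1, Tgfb3 and Ltbp2 rose, by 1.24 ± 0.23, 1.01 ± 0.23 and 3.89 ± 0.75.

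Of 21 other genes of collagen synthesis and trimming, 0 passed against eutopic endometrium and 17 lay above 0 with a median of 0.21; Colgalt2, a collagen galactosyltransferase, fell by 0.99 against uterus (adjusted p = 0.0495, limma). Of 15 other collagen chains 0 passed and 4 lay above 0, with a median of -0.15. Of 10 collagen receptors 0 passed and 9 lay above 0, with a median of 0.25. Between genotypes 0 genes of these lists passed in any tissue. In lesions the smallest unadjusted p were those of Fmod at 1.28 ± 0.42 (adjusted p = 0.993), Ccn1 at 1.74 ± 0.66, Colgalt2 at -0.85 ± 0.34 and Ccn2 at 1.55 ± 0.65; Ccn1 and Ccn2 are matricellular genes of the TGF-beta list.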

How the data were processed

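RNA from 18 pools was labelled with Cy3 and hybridised to 1-colour Agilent arrays. Per the file headers, the deposited spot intensity is Feature Extraction's processed signal, corrected for background and for spatial trend, without scaling between arrays. A second deposited table holds the authors' log2 values, centred per probe; their scaling stays unknown, and they tracked the scanner values at r = 0.993 to 0.997.

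Control spots and outlier spots were left out, each array's 75th percentile was subtracted from the log2 processed signal, and spots of a probe were averaged. Probes were named through RefSeq (GRCm38.p6): 32994 of 56605 had a symbol, and the brightest probe stood for each. Features well above background on at least 3 of 18 arrays were tested. limma 3.58.1 (R 4.3.3) fitted 6 group means with eBayes, 2-sided tests and Benjamini-Hochberg adjustment over 33185 features. The model was tested on simulated data in which 200 of 33185 features were shifted in ERBOE lesions. Against ERBOE uterus it recovered 0%, 65% and 85% of them at log2 shifts of 1, 2 and 3, with 0, 6 and 8 false calls. A difference near 1 can therefore miss the threshold with 3 arrays per group. Replicates are pools of animals, and their number limits the precision; 55.3% to 74.2% of probes passed the scanner's background test on each array, and 0 spots were flagged as saturated.

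Named in full are members past the threshold in any comparison and, where none passed, up to 8 with the smallest p; of other genes, those of fixed lists by the same rule with up to 4, and Esr2. The members and lists were chosen with earlier results of these data known. A p that misses the threshold does not show that values did not differ. Deviations of same-numbered arrays from their group means correlated at r of -0.35 to 0.44, over 0.1 in 20 of 45 pairs of arrays. All 3 pairs were over 0.1 between PRCre and ERBOE uterus (0.31 to 0.44), where the number also matches the slide. The same held between PRCre eutopic endometrium and PRCre lesions (0.13 to 0.33), which came from different animals. The labels do not say that a number marks a shared litter, batch or day, so these correlations do not establish a pairing.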

Additional observations from a re-analysis of the deposited data

How the results depend on the processing

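Alternatives covered background correction, scaling, filter, probe choice, slide, variance model, array weights, the deposited value table and each array left out. The lesion differences of Col8a1, Col12a1, Col14a1 and Cthrc1 that passed kept their sign in 29 of 29 alternatives. Col8a1 passed in 29 of 29 alternatives for ERBOE lesions against uterus and for both mean comparisons, and in 25 of 29 for ERBOE lesions against ERBOE eutopic endometrium. Col14a1 passed in 14 of 29 against eutopic endometrium (mean), 14 of 29 against ERBOE uterus and 22 of 29 against uterus (mean), Col12a1 in 20 of 29 against uterus (mean) and Cthrc1 in 17 of 29. The counts of members called changed by over 1.5 times as follows. For ERBOE lesions against eutopic endometrium, 2 passed with normexp background, 2 with the mean of all probes and 4 with array weights. For ERBOE lesions against uterus, 1 passed with quantile normalization, 1 with median scaling, 1 without the filter (40 members then tested) and 6 with array weights. For the mean against eutopic endometrium, 1 passed without the filter and 4 with array weights. The cause was not tested. Leaving out 1 array gave 0 to 2, 1 to 4 and 1 to 4 members for these comparisons in the same order and 1 to 3 for the mean against uterus; it gave 0 in each genotype comparison, and Col5a1 with Col5a2 then correlated at 0.47 to 0.76. With the replicate number as a block, 0 members passed between uteri and between PRCre lesions and PRCre eutopic endometrium, where all 3 same-numbered pairs correlated over 0.1, as without it. Elsewhere 1, 3, 2 and 3 members passed in those 4 comparisons, as without it, but against ERBOE uterus and in the mean against eutopic endometrium Col12a1 (adjusted p = 0.0280 and 0.0203, limma) passed in place of Col14a1 (0.0679 and 0.0739). A group of 2 arrays is taken to vary like the others. Probes near background, Loxl4 and Col10a1, limit what signal can show.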
